A study of Mus musculus with 6 samples.

Results

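The genes described here belong to the p53 pathway: Trp53 itself, its inhibitors Mdm2 and Mdm4, and the target genes Cdkn1a, Ccng1, Bax, Bbc3, Pmaip1, Zmat3 and Sesn1. They were taken as a list of 10 symbols, and every array probe set annotated with a single one of these symbols was used. That gave 19 probe sets for 8 genes, out of 45037 probe sets and 18193 named genes in all. Trp53 and Bax were not analysed here. The cells were mouse embryonic stem (ES) cells of the line EBRTcH3, in which the coding sequence of human WBSCR1, tagged with 3xFLAG, sat at the ROSA26 locus under a promoter that tetracycline keeps off. Clones A1, A3 and A4, each grown from a single colony, gave 1 control array (tetracycline present) and 1 induced array (24 h without tetracycline), so 3 control and 3 induced arrays. Control and induced cells of a clone carried the same transgene and differed in tetracycline, so the transgene and the removal of tetracycline cannot be told apart. WBSCR1 is the human counterpart of Eif4h, a factor that helps the helicase of translation initiation. The questions were whether p53 target genes moved when it was switched on, and whether the clones differed in them.

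p53 is a transcription factor that is made and destroyed continuously. Mdm2 is the ubiquitin ligase that marks it for destruction and is at the same time one of its target genes, which closes a feedback loop, and Mdm4 binds p53 and holds back its activity. After DNA damage or ribosomal stress p53 escapes this control, binds response elements near its target genes and raises them. The targets arrest the cell cycle (Cdkn1a), feed back on Mdm2 (Ccng1), trigger mitochondrial apoptosis (Bbc3 and Pmaip1), act on RNA (Zmat3) or restrain growth signalling through mTORC1 (Sesn1). Mouse ES cells are known for abundant p53 and for a weak arrest before S phase after damage.

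Response elements of p53 could be looked at for the 6 measured genes with a promoter in the RefSeq table (build GRCm38.p6), which holds windows from 250 bases before to 50 bases after annotated start sites. The p53 response element, a pair of 10-base half-sites that reads the same on both strands, was searched with both half-sites adjacent and the central C and G of each half-site required. The sites below are the best matches with at most 3 mismatches, shown because p53 is known to act through elements of this kind. Capitals mark the 20 bases of the pair and small letters the flanks.
Cdkn1a: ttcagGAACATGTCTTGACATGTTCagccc
Ccng1: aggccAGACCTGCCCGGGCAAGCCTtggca
Bbc3: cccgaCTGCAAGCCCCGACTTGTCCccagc
Sesn1: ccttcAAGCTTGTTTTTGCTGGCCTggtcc

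The Cdkn1a site (chr17:29090923-29090952, plus strand) began 51 bases before one of the annotated start sites and had 1 mismatch. The Ccng1 site (chr11:40755457-40755486, minus strand) began 195 bases before the start site and also had 1 mismatch. Of 32851 windows in the table, 22 (0.067%) held a match with at most 1 mismatch. The Bbc3 site (chr7:16309481-16309510, plus strand) and the Sesn1 site (chr10:41887261-41887290, plus strand) had 3 mismatches, as few as were found in 453 windows (1.38%) including those with fewer. The windows of Mdm2 (1 window) and Mdm4 (2 windows) held no match at that limit, and sites of these genes outside the windows were not searched. Zmat3 and Pmaip1 had no window. A match of letters is a description and does not show binding in these cells.

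All values are log2 signals of the robust multiarray average (RMA), so a difference of 1 is a doubling, and array medians lay between 5.11 and 5.19. Signals of different probe sets cannot be set against each other, so each probe set was compared only with itself. The average of 8 ES markers, among them Pou5f1, Sox2 and Nanog, stayed between 12.13 and 12.43 from array to array, and that of 6 fibroblast or feeder markers between 4.18 and 4.40. These averages come from different probe sets and show the spread over arrays only. Control probe sets for 18S ribosomal RNA differed by 1.36 (A1), 0.66 (A3) and 0.0030 (A4) between induced and control arrays. Gapdh probe sets from both ends of the transcript differed by at most 0.10 and those of Actb by 0.29 to 0.45. A set of 63 probe sets was at least 1 higher in A1 and at least 1 lower in A4 on induction, and 0 showed the reverse. None of the 19 probe sets was among them.

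No gene of the list passed the test of induction. The mean differences of the 19 probe sets lay between -0.18 and 0.23, 10 higher and 9 lower, with a median of 0.0061 against -0.0031 over all probe sets. In limma, 0 of 19 were called at an adjusted p under 0.05, beside 0% of all 45037 probe sets, and 0 of 19 had an unadjusted p under 0.05, beside 1.5%. The methods' t-test also called 0 of 19 after adjustment, with 1 under 0.05 unadjusted (beside 2.43% of all probe sets), the dimmest Sesn1 probe set. With clone as a block limma called 0 as well, with 0 unadjusted. The 95% interval lay within 0.5 of no change for 16 of the 19 (84.2%), beside 79.8% of all probe sets, and within 1 for all 19. In 4 of 19 the clones shared a direction, beside 21.8% of all probe sets.

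**Figure D1:**
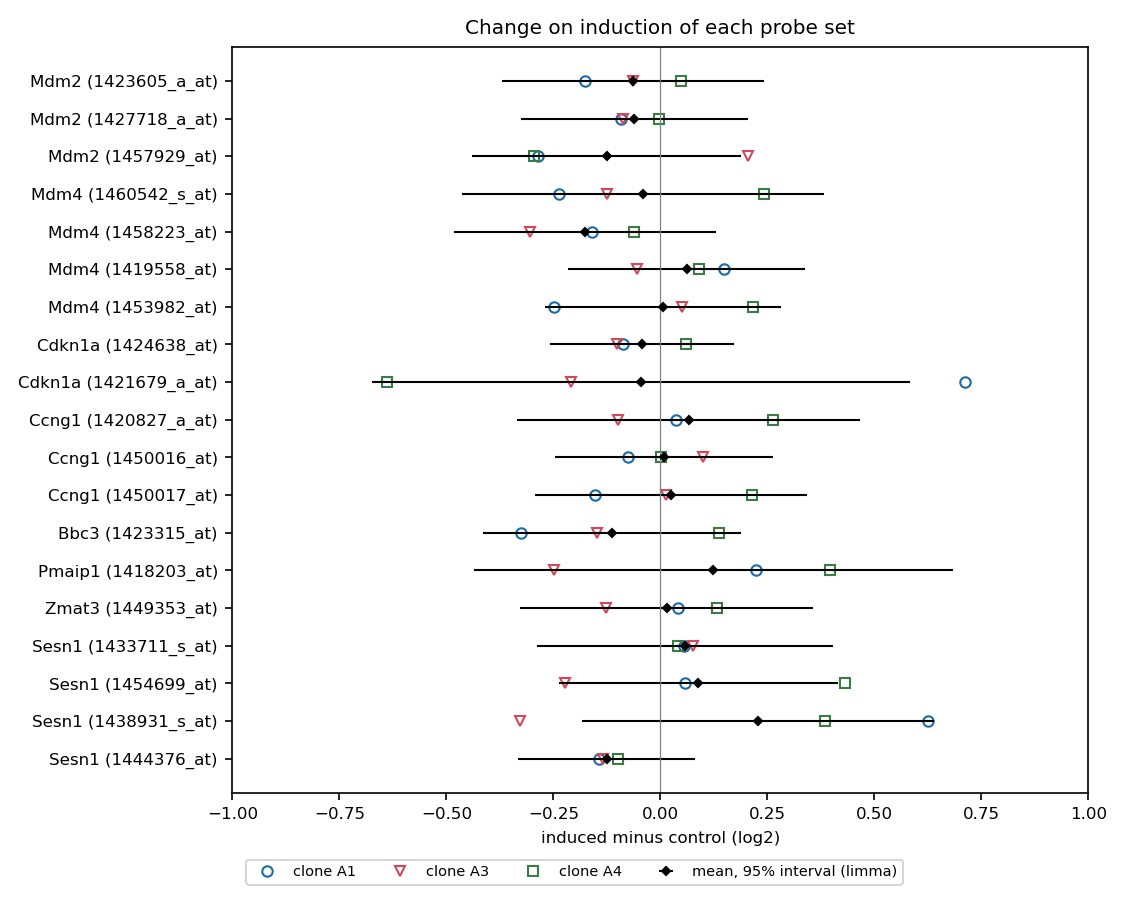
Induced minus control signal (log2, horizontal axis) of each of the 19 probe sets. Coloured symbols are the 3 clones and black diamonds their mean with the 95% interval of limma. All intervals cross 0, and the widest spread between clones is that of the Cdkn1a probe set 1421679_a_at, from -0.64 to 0.71.

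Neither inhibitor of p53 moved beyond the spread. In clones A1, A3 and A4, Mdm2 read 9.74, 9.40 and 9.61 before and 9.57, 9.33 and 9.66 after induction (probe set 1423605_a_at). The groups overlapped, and the difference was -0.064 ± 0.13 (SE, n = 3 and 3, limma adjusted p 0.999942, the value for each of the 19). The second probe set, 1427718_a_at, gave -0.061 ± 0.11, lower in every clone (-0.091, -0.088 and -0.0031). These 2 probe sets share the gene and its arrays and are not independent. The third, 1457929_at, lay between 2.90 and 3.38 and differed by -0.13 ± 0.13. With the brightest probe set, a change of Mdm2 above 1.29-fold in either direction lay outside the 95% interval.

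Mdm4, the partner of Mdm2, had 4 probe sets. The brightest, 1460542_s_at, read 8.53, 8.17 and 8.46 in control and 8.29, 8.05 and 8.71 in induced cells of A1, A3 and A4. It was lower in induced A1 and A3 and higher in induced A4, for a mean of -0.040 ± 0.18. The probe set 1458223_at was lower in all clones (-0.16, -0.31 and -0.061, mean -0.18 ± 0.13), and the other two differed by 0.062 ± 0.12 and 0.0061 ± 0.12.

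Among the targets, Cdkn1a encodes p21, the inhibitor of cyclin-dependent kinases that carries most of the arrest. Its brighter probe set, 1424638_at, was nearly flat, with 9.05, 9.15 and 9.07 in control and 8.96, 9.04 and 9.13 in induced cells of A1, A3 and A4. The 6 arrays spanned 0.18, against a median span of 0.40 over all probe sets, and induction differed by -0.043 ± 0.093. The other probe set, 1421679_a_at, read 7.25, 8.21 and 8.06 in control and 7.97, 8.01 and 7.42 in induced cells. It was lowest in control A1 and induced A4, so that it was 0.71 higher on induction in A1, 0.64 lower in A4 (-0.64) and 0.21 lower in A3 (-0.21), with a mean of -0.046 ± 0.27. These changes by clone rest on the clone labels. Over all probe sets, A1 and A4 arrays matched the other clone slightly more closely than their own. A difference of at least 0.5 up in A1 and down in A4 was seen in 0.555% of all probe sets, and in opposite directions either way in 0.584%. The 63 probe sets that differed this way by 1 or more had medians of 6.49, 6.69 and 7.99 in control and 8.08, 6.57 and 6.44 in induced cells. They were low in control A1 and induced A4, as this probe set was, but also low in both A3 arrays, where this probe set was high. Their part in its values was not tested. The brighter probe set did not show that order, so the probe sets of Cdkn1a gave different pictures of the clones, and neither passed the test of induction.

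**Figure D2:**
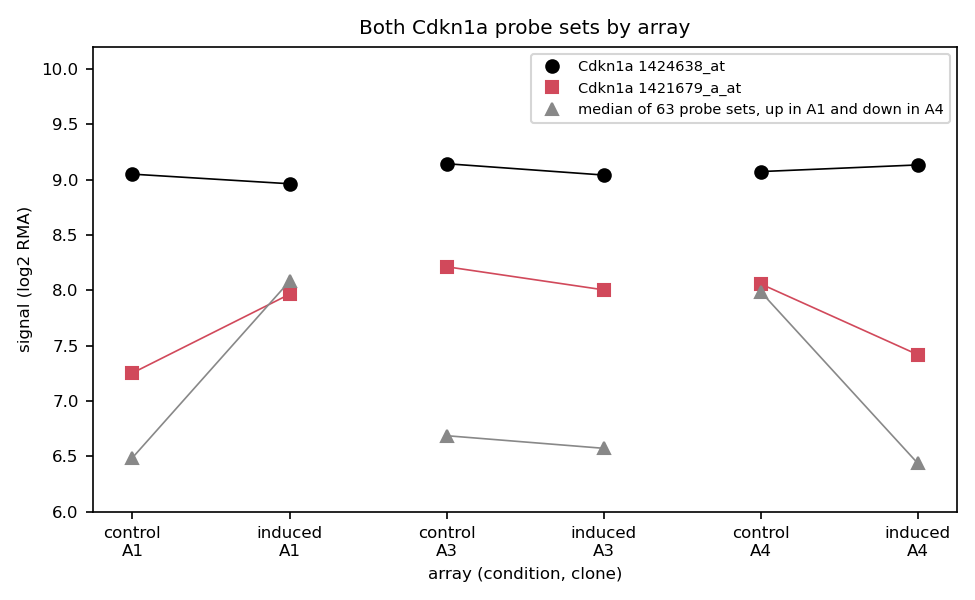
Signal (vertical axis, log2 RMA) of both Cdkn1a probe sets in each array, with control and induced arrays of a clone joined by lines. Triangles are the median of the 63 probe sets picked for being at least 1 higher in A1 and at least 1 lower in A4 on induction. 1424638_at stays between 8.96 and 9.15, while 1421679_a_at spans 7.25 to 8.21.

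By rule, the genes whose pattern over the 6 arrays was most like that of Cdkn1a (1424638_at) were looked up among 9737 genes with a mean of at least 6. They were Cd82, a membrane protein of the tetraspanin family (Pearson r = 0.994), the phospholipase Plcg1 (0.983) and the fatty acid desaturase Fads1 (0.959). Those values describe 6 arrays of 3 clones, over which Cdkn1a itself spanned only 0.18. They were the highest of 9737, so they carry no test.

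Ccng1, cyclin G1, which recruits a phosphatase to Mdm2, is among the most responsive p53 targets in the mouse. It read 11.08, 10.68 and 10.81 in control and 11.12, 10.59 and 11.07 in induced cells of A1, A3 and A4 (1420827_a_at). Only A4 moved by more than 0.1, upwards by 0.26, and the mean was 0.066 ± 0.17. The other probe sets of the gene gave 0.0080 ± 0.11 and 0.025 ± 0.14. With Cdkn1a this is the gene with the closest match to the response element shown above, and neither passed the test of induction.

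Bbc3 (Puma) and Pmaip1 (Noxa) are BH3-only proteins, which bind and neutralise the survival proteins of the Bcl2 family. Bbc3 read 8.55, 8.69 and 8.37 in control and 8.22, 8.54 and 8.51 in induced cells of A1, A3 and A4, a mean of -0.11 ± 0.13. Pmaip1 read 7.05, 7.95 and 7.39 in control and 7.27, 7.70 and 7.79 in induced cells. It was higher on induction in A1 (0.22) and A4 (0.40) and lower in A3 (-0.25), for a mean of 0.12 ± 0.24. Its interval, -0.44 to 0.68, was the widest of the 19 after that of the Cdkn1a probe set 1421679_a_at.

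Zmat3, a zinc finger protein that binds RNA, read 9.61, 9.37 and 9.59 in control and 9.65, 9.24 and 9.72 in induced cells of A1, A3 and A4. The mean was 0.015 ± 0.15. Sesn1, a sestrin that restrains mTORC1, had 4 probe sets. The brightest, 1433711_s_at, read 7.90, 8.23 and 7.87 in control and 7.95, 8.30 and 7.91 in induced cells, slightly higher in each clone (by 0.056, 0.077 and 0.040) with a mean of 0.058 ± 0.15. The next, 1454699_at, gave 0.088 ± 0.14 and 1438931_s_at gave 0.23 ± 0.18, with 0.63 in A1, -0.33 in A3 and 0.38 in A4. The dimmest, 1444376_at, lay at 2.91 to 3.14 and was the only one of the 19 whose control and induced arrays did not overlap (-0.13 ± 0.089), beside 5.53% of all probe sets.

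**Figure D3:**
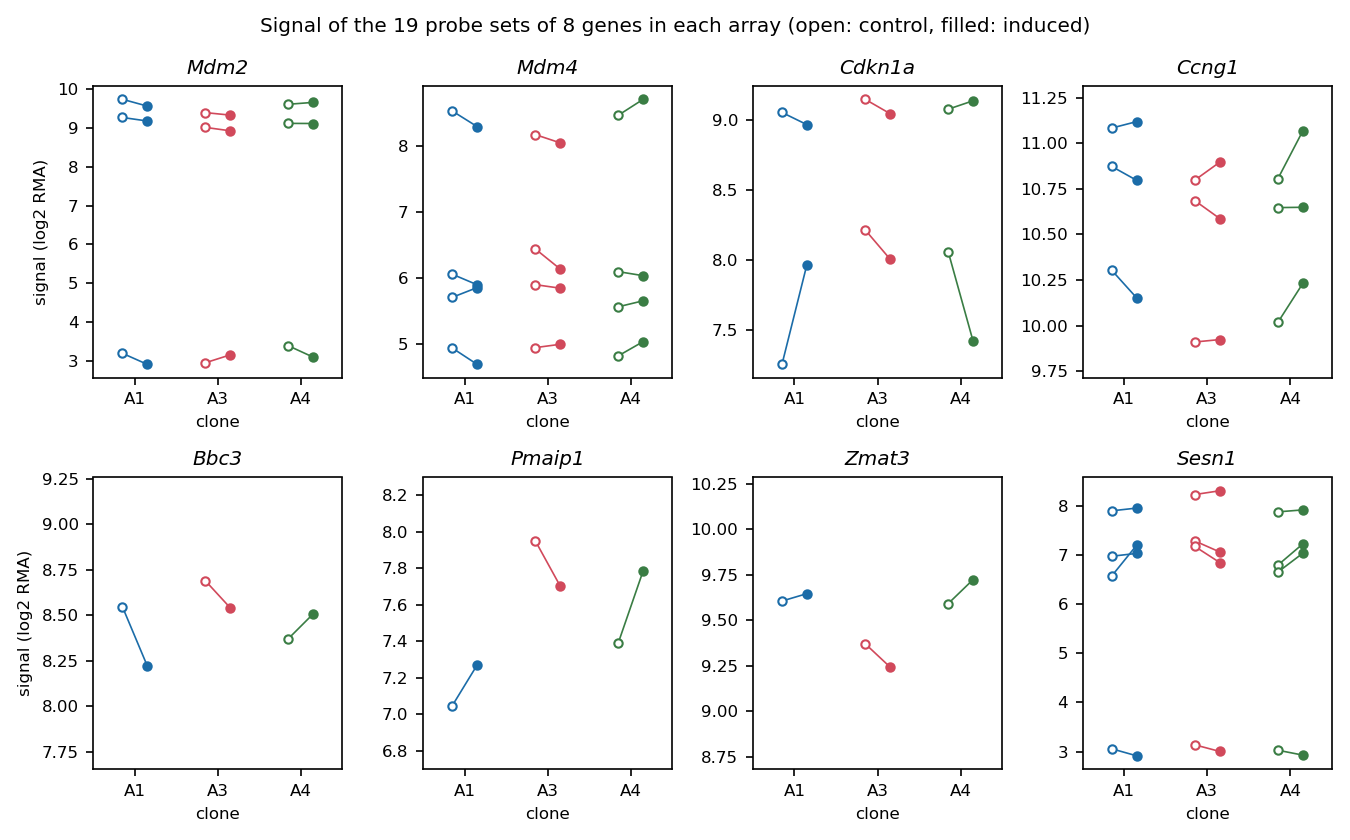
Signal (vertical axis, log2 RMA, a scale of its own for each gene) of all 19 probe sets of the 8 genes by clone. Open circles are control and filled circles induced arrays, joined for each probe set. Zmat3 is lower in both A3 arrays than in the other 4, and Sesn1 at its brightest probe set is higher.

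The median change of the 19 probe sets was -0.087 in A1, -0.10 in A3 and 0.091 in A4, against -0.019, 0.0098 and -0.0078 over all probe sets. Over the 16 with a mean of at least 5 it was -0.020, -0.11 and 0.11. With 1 array for each clone and condition these differences between clones were not tested.

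No gene of the list passed the main tests between clones either. The F test over clones, in a fit with condition, called 0 of the 19 probe sets, beside 5.54% of all (5 of 19 had an unadjusted p under 0.05, beside 19.3% of all). Of the 16 with a mean of at least 5 it called 0, beside 8.91%. The split of A3 from A1 and A4 was chosen with earlier results of these data known, so its p values are not those of a planned test. For A3 against the mean of A1 and A4, 0 of 19 were called, beside 9.57% of all (3.89% higher and 5.68% lower in A3), and 8 of 19 had an unadjusted p under 0.05, beside 24.4% of all. Both A3 arrays lay outside the range of the other 4 for 8 of 19 probe sets, beside 36.4% of all, so the share over the 19 was close to the background. With 1 probe set for each gene, that with the highest mean, the shares were larger. For A3, 6 of the 8 genes had an unadjusted p under 0.05, beside 5010 of 18193, with 4 genes higher and 4 lower. The F test gave 5 of 8, beside 3980 of 18193. Both A3 arrays lay outside the range of the others for 5 of 8 (62.5%), beside 41.6%. Tested over 1 probe set for each gene alone, A3 against A1 and A4 called 2 of the 8. They were Sesn1 (limma adjusted p 0.0295) and Ccng1 (0.0390), and the share of all genes called in that setting is not given here. For A1 against A4, 0 of 19 were called, beside 0.0178% of all, and 1 had an unadjusted p under 0.05, beside 4.34%. That was Pmaip1, lower in both A1 arrays than in the other 4 (7.05 and 7.27).

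Sesn1 came closest to a call. Its brightest probe set was 0.36 ± 0.096 (SE) higher in A3, at 8.23 and 8.30 against 7.87 to 7.95 in the other arrays (limma adjusted p 0.0585). The adjusted p was 0.0290 to 0.0354 with condition left out, with probe sets of at least 5 only, with quantile normalization repeated, with 1 probe set for each gene and with the trend and robust options. It was 0.0777 with array medians subtracted and 0.128 to 0.293 without single arrays, over which the difference was 0.34 to 0.37. The other 3 probe sets were also higher in A3, by 0.088 to 0.16, with adjusted p of 0.526 to 0.690. Pmaip1 was 0.45 ± 0.14 higher in A3 (adjusted p 0.0913). This rested on single arrays, with 0.17 without control replicate 2 (adjusted p 0.526) and 0.73 without induced replicate 2 (0.0462). Bbc3 was 0.20 ± 0.12 higher (0.353).

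Ccng1, Zmat3 and Mdm2 pointed the other way. Ccng1 read 10.68 and 10.59 in A3 against 10.81 to 11.12 in the other arrays, a difference of -0.38 ± 0.11 (limma adjusted p 0.0738). It passed without condition (0.0487), with 1 probe set for each gene (0.0390) and with the trend and robust options (0.0233). It did not pass with a mean of at least 5 (0.0501), array medians subtracted (0.0636), quantile normalization repeated (0.0900) or any single array left out (0.0749 to 0.475). The second probe set of Ccng1 gave -0.26 ± 0.11, but 1450016_at gave 0.11 ± 0.099. Zmat3 differed by -0.33 ± 0.10 (0.0918), with an adjusted p of 0.0425 with the trend and robust options, 0.0511 to 0.139 under the other settings and 0.123 to 0.519 without single arrays, and Mdm2 by -0.28 ± 0.10 (0.138) and -0.20 ± 0.097 (0.253). Mdm4 was lower on its brightest probe set (-0.39 ± 0.12, 0.0964) and higher on the other 3 (0.098 to 0.27), so no direction can be given for the gene. Cdkn1a differed by 0.038 ± 0.099 on the flat probe set and by 0.44 ± 0.24 on the other (0.307). That second value also rested on single arrays, with 0.15 without control replicate 1 (limma adjusted p 0.570), 0.21 without induced replicate 3 (0.618), 0.66 without control replicate 3 (0.0987) and 0.72 without induced replicate 1 (0.0497).

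The wider pathway was read from lists chosen with earlier results of these data known. Of 31 other p53 target genes 30 were measured, 1 probe set for each, that with the highest mean. On induction 16 were higher and 14 lower, 0 called by limma with 0 unadjusted, with a median of 0.00070 against 0.0028 over all genes. Smallest in p were Ei24, a protein of the endoplasmic reticulum (0.090 ± 0.094, SE), and Rps27l, a ribosomal protein that p53 induces (-0.092 ± 0.099). Of 25 p53 regulators and partners 14 were higher and 11 lower, again with 0 called and 0 unadjusted, led by the p53 relatives Trp73 (0.19 ± 0.12) and Trp63 (-0.12 ± 0.13). Of 12 other Bcl2 family genes 4 were higher and 8 lower with 0 called and 0 unadjusted, led by the survival gene Bcl2 (-0.10 ± 0.087) and the BH3-only gene Hrk (-0.12 ± 0.13).

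Several other p53 target genes were lower in A3. Against the mean of A1 and A4, 25 of the 30 were lower in A3, beside 42.3% of all genes, and the median difference was -0.14 against 0.038 over all genes. Limma called 6 lower, beside 6.32% of all genes, and 0 higher, beside 5.13% (11.4% in both directions). Dim probe sets are part of that background. Among probe sets with a mean of at least 5, 11744 of 23591 were lower in A3, with a median difference of 0.0015. Of these 23591, 2157 were called lower and 1391 higher. Gtse1, which is expressed in G2 and holds p53 in check, read 9.62 and 9.73 in A3 against 10.47 to 10.74 in the other arrays (-0.94 ± 0.11, SE, adjusted p 0.00303). Ddit4l, an inhibitor of mTORC1 signalling, was lower on all 3 of its probe sets (-0.78 ± 0.096 on the brightest, 0.00320). Dram1, a lysosomal protein of autophagy, gave -0.73 ± 0.12 (0.00968), and Perp, a protein of cell junctions, -0.55 ± 0.11 (0.0212). Other settings with all arrays kept called 5 to 9 lower, and the share of all genes called lower under them is not given here. The count of 6 called was 3 without induced replicate 1, 2 without induced replicate 2, and 2 without both control replicate 3 and induced replicate 1 in a fit of clone alone.

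**Figure D4:**
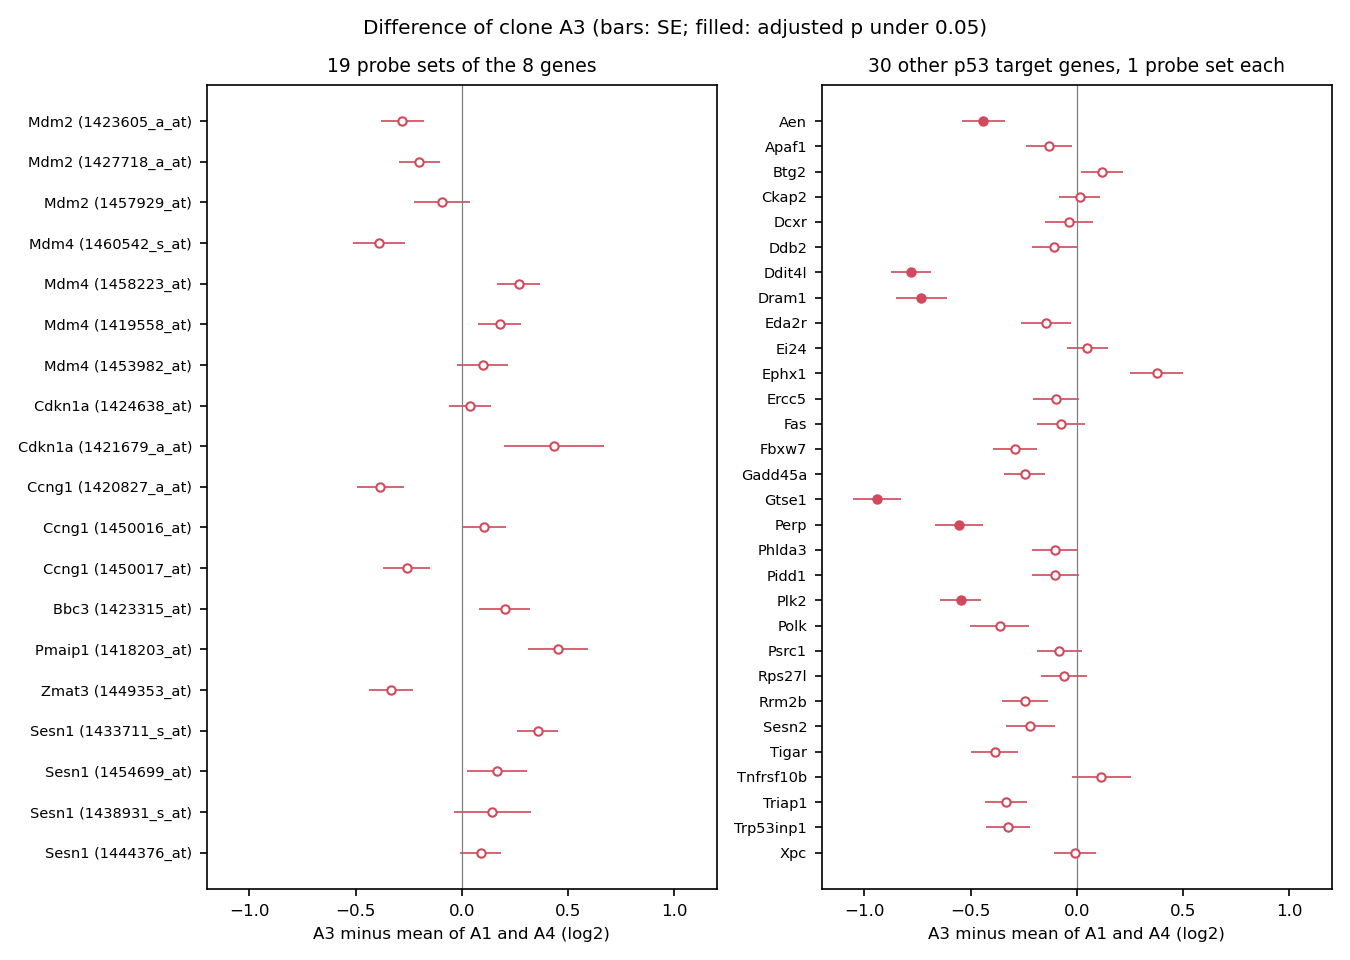
Difference of A3 from the mean of A1 and A4 (horizontal axis, log2) for the 19 probe sets (left) and for 30 other p53 target genes (right), with bars of 1 SE. Filled points have an adjusted p under 0.05 in limma, 0 on the left and 6 on the right, all 6 lower in A3.

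Of the 25 partners and regulators, 4 were called lower in A3, beside 6.32% of all genes, and 1 higher, beside 5.13%. In all 15 were lower, called or not, beside 42.3% of all genes and 11744 of 23591 probe sets with a mean of at least 5. Ep300, an acetyltransferase that acts as a co-activator of p53, read 8.86 and 8.52 in A3 against 9.72 to 9.89 in the other arrays (-1.14 ± 0.13, SE, limma adjusted p 0.00233, 2.21-fold lower in A3). Its relative Crebbp gave -0.63 ± 0.12 (0.0176). The 3 other Crebbp probe sets were lower as well (-0.99 to -0.47), but for 2 of them the adjusted p was 0.360 and 0.413. Of the damage kinases, Prkdc gave -0.78 ± 0.11 (0.00617) and Atm -0.41 ± 0.097 (0.0370), with the second Atm probe set at -0.16 ± 0.14. Higher in A3 was the checkpoint kinase Chek2 (0.40 ± 0.096, 0.0398), which was singled out after its value was seen. In the Bcl2 family 1 of 12 was called higher, beside 5.13% of all genes, and 1 lower, beside 6.32%. Bmf, a BH3-only protein, was 1.08 ± 0.10 higher (0.00121) and the pore-forming Bak1 lower (-0.69 ± 0.11, 0.00894). A second Bak1 probe set gave -0.35 ± 0.20 (0.327). Bad (0.38 ± 0.12, 0.0886) and Hrk (0.28 ± 0.099, 0.123) were next.

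Some markers of other cell types differed in A3 as well. The 6 endoderm markers averaged 4.85 and 4.87 in A3 against 5.04 to 5.26 in the other arrays, and 4 of the 6 were lower in A3 and 2 higher. On the brightest probe set of each gene, the values were -0.76 for Gata4, -0.73 for Gata6 and -0.36 for Sox17. Those of Foxa2, Afp and Ttr were -0.22, 0.038 and 0.17. Gata4 and Gata6 passed the test on these probe sets. A dimmer probe set of Sox17 gave -1.04 and passed as well (limma adjusted p 0.00245). The second probe set of Gata4 gave 0.14, and the other Gata6 probe sets gave -0.67 (0.0787) and -0.11 (0.520). Over all 17 endoderm probe sets, 10 were lower in A3 and 7 higher, with 3 called lower and 0 higher. Tfap2c, listed among 5 trophectoderm markers, was 1.10 higher, while Cdx2, Elf5, Gata3 and Hand1 differed by -0.050 to 0.12. Of the 6 fibroblast or feeder markers, 6 were higher in A3 and 0 called, and a dimmer Pdgfrb probe set gave 0.71 (limma adjusted p 0.0231). Of 4 neural ectoderm markers, 2 were higher and 2 lower with 0 called. Dimmer probe sets gave -1.09 for Sox1 (0.00868) and 0.56 for Pax6 (0.0123). Of 4 mesoderm markers, 3 were higher and 1 lower with 0 called. The 8 ES markers averaged 12.28 and 12.13 in A3 against 12.30 to 12.43, 5 of them lower and 3 higher, from -0.51 for Klf4, the only one called, to 0.038 for Sox2. The Actb probe sets, a sign of RNA quality, differed by 0.29 and 0.32 between the ends of the transcript in A3 and by 0.40 to 0.45 in the other arrays. Fewer cells of a type and less RNA per cell cannot be told apart in bulk arrays. The part of these markers and of the Actb difference in the differences of A3 was not tested.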

How the data were processed

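Affymetrix mouse genome arrays, 1 for each of 3 clones and 2 conditions, were grouped by the titles of the samples. The values the authors deposited are log2 signals computed by RMA with the affy package of Bioconductor (version not given in the sources used here). RMA quantile-normalizes the arrays, so a shift shared by all genes would not be seen. Of 45101 probe sets the array maker's 64 controls were not tested, which left 45037, of which 34945 had 1 symbol in the platform annotation, 932 several and 9160 none. Genes were named only from probe sets with 1 symbol, and the number of arrays limits the precision.

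Induced and control arrays were compared with limma 3.58.1 (lmFit and eBayes) in R 4.3.3, condition as the only term as in the study's methods, two-sided, at an adjusted p of 0.05 (Benjamini-Hochberg, all probe sets tested). Clones were compared by an F test and contrasts in a fit of condition and clone. Replicate numbers mark clones, so arrays with the same number are pairs. Their deviations from the group means correlated at 0.313 (A1), 0.670 (A3) and 0.290 (A4), while control A1 with induced A4 gave 0.348 and control A4 with induced A1 0.369. A1 and A4 arrays thus matched the other clone more closely than their own, and the pairing rests on the clone labels. The replicate block was run beside the main test.

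The 10 genes, the lists and the split of A3 from A1 and A4 were chosen with earlier results of these data known. Named were all probe sets of the genes, of each list the 2 genes with the smallest p on induction and up to 4 with the smallest p between clones, and the 3 genes most like Cdkn1a. Alternatives were the block, the methods' t-test, a mean of at least 5 log2, subtraction of array medians, repeated quantile normalization, eBayes with trend and robust options, 1 probe set for each symbol (the highest mean), clone without condition, and leaving out arrays or clones. The fits were tested on simulated data. Plots used matplotlib 3.10.9 in Python 3.11.15.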

Additional observations from a re-analysis of the deposited data

Results flagged for a closer look

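The Cdkn1a probe set 1421679_a_at changed in opposite directions by clone on induction: 0.71 log2 in A1, -0.64 in A4 and -0.21 in A3. With 1 array for each clone and condition the difference between clones was not tested. The changes rest on the clone labels. Over all probe sets, deviations of control A1 correlated at 0.348 with induced A4 and 0.313 with induced A1. Those of control A4 correlated at 0.369 with induced A1 and 0.290 with induced A4. The other Cdkn1a probe set changed by -0.087, 0.060 and -0.10 in the same clones.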

How the results depend on the processing

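Induction called 0 of the 19 probe sets, and 0 of all probe sets, under every alternative run: the replicate block, the methods' t-test, the filter at 5 log2, both rescalings, 1 probe set for each symbol, the trend and robust options, and without each array or clone (smallest adjusted p over the 19 0.783 to 1). The replicate block left the mean differences as they were and changed no call. The F test over clones called 0 of 19 under all alternatives run, while its calls over all probe sets were 2496 in the report, 589 to 1959 without single arrays and 30 for clone alone without both control replicate 3 and induced replicate 1, an alternative chosen after seeing the data. With condition that fit had no residual degrees of freedom and was not run. A3 against A1 and A4 called 2 of 19 (Ccng1 and Sesn1) without condition, 1 of 16 with a mean of at least 5 log2, and 1 of 19 with quantile normalization repeated. It called 2 of 8 with 1 probe set for each symbol, 3 of 19 with trend and robust options, and 0 to 1 without single arrays. The share of all probe sets called for A3 under these settings is not given here. Over all probe sets, the F test over clones called 3165 without condition, 2919 with quantile normalization repeated and 3618 with trend and robust options. With fewer probe sets tested it called 2615 (mean of at least 5 log2) and 2001 (1 for each symbol). The other p53 target genes called lower in A3 numbered 2 to 4 without single arrays, against 6, and 2 without both arrays named above, while 23 to 26 of 30 were lower without single arrays. With all arrays kept, the other p53 target genes called lower numbered 5 with quantile normalization repeated, and 6 without condition or with array medians subtracted. They numbered 7 with a mean of at least 5 log2, 8 with 1 probe set for each symbol and 9 with trend and robust options. Shares over all genes under these settings are not given here. A1 against A4 called 0 of 19 under each of the alternatives. Uncalled differences near 0 often turned in sign. Without single arrays or clones the changes on induction ranged from -0.29 to -0.021 for Mdm2 1457929_at, from -0.16 to 0.030 for Mdm2 1423605_a_at, from -0.12 to 0.013 for Mdm2 1427718_a_at, from -0.22 to 0.11 for Mdm4 1460542_s_at, from -0.018 to 0.15 for Mdm4 1419558_at, from -0.10 to 0.13 for Mdm4 1453982_at, from -0.42 to 0.25 for Cdkn1a 1421679_a_at, from -0.032 to 0.24 for Ccng1 1420827_a_at, from -0.055 to 0.074 for Ccng1 1450016_at, from -0.069 to 0.14 for Ccng1 1450017_at, from -0.085 to 0.37 for Pmaip1 1418203_at, from -0.078 to 0.16 for Zmat3 1449353_at, from -0.066 to 0.17 for Sesn1 1433711_s_at, from -0.083 to 0.24 for Sesn1 1454699_at. The differences of A3 ranged from -0.34 to 0.15 for Mdm2 1457929_at, from -0.0063 to 0.083 for Cdkn1a 1424638_at, from -0.070 to 0.40 for Sesn1 1454699_at, from -0.27 to 0.56 for Sesn1 1438931_s_at. Without both control replicate 3 and induced replicate 1 the induction values were 0.051 for Mdm2 1457929_at, 0.026 for Mdm4 1460542_s_at, -0.053 for Mdm4 1419558_at, -0.057 for Ccng1 1420827_a_at, -0.063 for Ccng1 1450016_at, -0.029 for Ccng1 1450017_at, -0.0052 for Zmat3 1449353_at, and A3 differed by -0.018 for Mdm4 1453982_at. Repeated quantile normalization gave -0.0091 for Ccng1 1450016_at on induction. The cause of these moves was not tested.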
